A study of Mus musculus with 6 samples.

Results

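The genes of the cytoplasmic ribosome were examined for sites of the BMP effectors pSmad1/5 and Smad4 in embryonic mouse limb and molar tooth germ. They were taken as the protein-coding genes whose symbol is Rps, Rpl or Rplp followed by a number and at most 1 letter a, x or y. The rule found 75 of the 21887 protein-coding genes that RefSeq places on the nuclear chromosomes of GRCm38.p6, and used no value of the peak lists. Of these 75, 29 encode proteins of the small subunit, 43 encode proteins of the large subunit, and Rplp0, Rplp1 and Rplp2 encode the stalk. Names outside the pattern, such as Rpsa, Fau and Rpl36al, were counted separately.

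Chromatin immunoprecipitation with sequencing (ChIP-seq) had been carried out on wild-type CD1 embryos at E13.5 (counted in days of embryonic development), after fixation in 1% formaldehyde for 15 min. There were 4 groups with a list of peaks, pSmad1/5 and Smad4 in each of the 2 tissues, with 1 library each. An input sample of each tissue, 2 in all, was not used here. The sources used here do not give the number of embryos pooled or their sex, and whole limb or tooth tissue holds several cell types. The lists hold no expression values, so the tissue labels could not be checked against marker genes, and no value below is a level of a ribosomal protein transcript. With 1 library a group, no difference between groups has a replicate check, and no p-value was computed. Where 4 values are given in list order below, limb comes before molar and, within a tissue, pSmad1/5 before Smad4.

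The limb lists held 23389 peaks for pSmad1/5 and 29756 for Smad4, and the molar lists 35476 and 34561. Each peak has a summit and an enrichment score, which is the authors' own value and is compared here only within a list. Read depth is unknown, so the length of a list is not an amount of binding. The lowest score listed differs between autosomes in the molar lists, so the molar shares are also given by chromosome further down. In the limb lists it is in the same class on all autosomes and lower on X and Y.

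As background, each ribosome holds nearly every one of these proteins once, with the acidic stalk proteins P1 and P2 as the exception. The genes are short, active in all growing cells, and typically start in a CG-rich promoter with a run of pyrimidines at the first transcribed base. That run gives their mRNAs the terminal oligopyrimidine tract through which mTOR signalling controls translation. Mutations of single ribosomal protein genes cause Diamond-Blackfan anaemia in humans and skeletal, tail and pigment defects in mice. pSmad1/5 is the form of Smad1 and Smad5 that BMP receptors have phosphorylated, and Smad4 is the partner it shares with the Smads of the TGF-beta branch. Smad proteins contact the letters AGAC, and BMP-activated Smads also GC-rich letters such as GGCGCC or GGAGCC.

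A few promoters are printed as examples of sites near these genes. They are not typical in position: most of their summits lie upstream, whereas 27 of 37 start peaks of known strand lay downstream. All sequences are RefSeq's, on GRCm38.p6, printed 5′ to 3′ on the strand of the gene, from 250 bases before the start site in the promoter table. They end at most 30 bases into the gene, and capitals mark bases inside a deposited peak. The first is Rpl7a, a large-subunit protein gene on chromosome 2, at chr2:26910557-26910714 on the plus strand. There the capitals mark the 63 bases that the limb pSmad1/5 peak and the limb Smad4 peak have in common, and they hold 1 GGCGCC and 1 GGAGCC. Its print ends after 158 bases, because the annotated gene begins at 26910685, before the start site of this window.
Rpl7a, limb pSmad1/5 and limb Smad4: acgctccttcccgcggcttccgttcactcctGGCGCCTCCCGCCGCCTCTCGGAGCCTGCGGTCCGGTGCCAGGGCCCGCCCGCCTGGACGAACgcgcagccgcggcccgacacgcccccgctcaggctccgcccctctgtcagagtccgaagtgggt
The second is Rps10, a small-subunit protein gene mutated in Diamond-Blackfan anaemia, at chr17:27635215-27635494 on the minus strand. Its 2 prints of 280 bases show adjoining peaks of 2 tissues: limb Smad4 just before the start and molar pSmad1/5 over the start. The limb Smad4 bases hold AGAC, a copy of GGAGCC, and the core of an ETS factor site written CCGGAAG. Of the 82 bases of the molar pSmad1/5 peak, 44 lie in this window and hold none of these. The rest of that peak lies farther inside the gene and was not searched.
Rps10, limb Smad4: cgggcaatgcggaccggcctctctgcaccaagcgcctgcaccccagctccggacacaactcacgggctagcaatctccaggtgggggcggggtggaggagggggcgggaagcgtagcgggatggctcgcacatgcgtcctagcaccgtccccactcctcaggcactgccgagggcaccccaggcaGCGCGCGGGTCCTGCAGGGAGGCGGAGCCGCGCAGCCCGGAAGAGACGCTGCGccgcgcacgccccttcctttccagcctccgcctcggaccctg
Rps10, molar pSmad1/5: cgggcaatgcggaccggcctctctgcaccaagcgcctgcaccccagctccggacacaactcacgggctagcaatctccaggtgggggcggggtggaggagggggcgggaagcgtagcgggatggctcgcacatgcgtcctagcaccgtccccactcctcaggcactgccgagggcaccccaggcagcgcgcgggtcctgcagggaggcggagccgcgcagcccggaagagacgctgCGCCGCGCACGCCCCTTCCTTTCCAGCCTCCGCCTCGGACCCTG
The third is Rpl36a, a large-subunit gene on the X chromosome, at chrX:134585404-134585683 on the plus strand, where the limb Smad4 peak covers AGAC and GGAGCC.
Rpl36a, limb Smad4: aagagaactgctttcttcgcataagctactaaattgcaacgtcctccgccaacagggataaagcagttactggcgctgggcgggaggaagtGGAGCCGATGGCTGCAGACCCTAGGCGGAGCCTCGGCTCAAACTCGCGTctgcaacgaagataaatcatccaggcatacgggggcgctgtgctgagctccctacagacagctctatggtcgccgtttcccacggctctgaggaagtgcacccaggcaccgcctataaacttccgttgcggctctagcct
The fourth is Rplp0, the gene of the protein at the base of the stalk, at chr5:115559217-115559496 on the plus strand, where the limb pSmad1/5 peak covers none of the letters searched for.
Rplp0, limb pSmad1/5: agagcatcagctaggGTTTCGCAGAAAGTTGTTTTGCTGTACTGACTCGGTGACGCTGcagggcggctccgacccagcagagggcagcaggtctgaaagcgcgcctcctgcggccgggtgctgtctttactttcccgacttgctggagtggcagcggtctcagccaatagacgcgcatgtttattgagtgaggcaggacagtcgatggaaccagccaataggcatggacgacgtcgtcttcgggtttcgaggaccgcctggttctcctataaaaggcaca

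The first comparison asks how many ribosomal protein genes have a peak summit close to either annotated end. Within 1 kb, the limb pSmad1/5 list had a summit at 18 of 75 genes, 24.0% (exact Clopper-Pearson 95% interval 14.9 to 35.3%), against 15.5% of all protein-coding genes. Limb Smad4 had one at 12 of 75, 16.0% (8.55 to 26.3%), against 21.8%. Molar pSmad1/5 had one at 13 of 75, 17.3% (9.57 to 27.8%), against 20.7%, and molar Smad4 at 4 of 75, 5.33% (1.47 to 13.1%), against 7.76%. Thus the share lay above that of all genes in 1 list and below it in the other three, and in all 4 the interval takes in the share of all genes. The intervals cover counting over genes only, not variation between embryos.

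Ribosomal protein genes are shorter than most genes, with a median length of 3164 bp (982 to 11774 bp) against 17169 bp, so the shares were also set beside those of other genes of the same lengths. This length-standardised share is the share of the other protein-coding genes in 10 classes of length, weighted by the number of ribosomal protein genes in each class. Within 1 kb it was 14.8%, 21.4%, 18.2% and 7.24% in list order. The ratio of the ribosomal protein genes to it was 1.62 (1.01 to 2.38, from the interval of the share), 0.747 (0.399 to 1.23), 0.951 (0.525 to 1.53) and 0.736 (0.203 to 1.81). Limb pSmad1/5 was the 1 list of the 4 whose interval lay above 1, with its lower bound at 1.01.

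The ratio for limb pSmad1/5 depended on which promoter letters were taken into account, in comparisons chosen after seeing the data. RefSeq's promoter windows of 300 bases, 250 before and 50 after a start, had a median of 21.0 CG dinucleotides for ribosomal protein genes against 13.0 for all genes. The windows cover 55 of the 75 genes. For those 55, the limb pSmad1/5 ratio within 1 kb was 1.95 with 5 classes of length alone, 1.25 with classes of length and promoter G and C content, and 0.971 with classes of length and CG dinucleotides. In the same order of settings it was 1.39, 0.867 and 0.666 for limb Smad4. For molar pSmad1/5 it was 1.31, 0.847 and 0.606, and for molar Smad4 1.27, 0.927 and 0.865. With CG dinucleotides all 4 ratios lay below 1, and with G and C content all but limb pSmad1/5 (1.25) did. No interval was computed for these ratios.

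Farther out, more of the ribosomal protein genes had a summit than genes of the same length. Within 10 kb the counts were 42 of 75 for limb pSmad1/5 (56.0%, 44.1 to 67.5%, all genes 41.9%) and 35 for limb Smad4 (46.7%, 35.1 to 58.6%, all genes 47.6%). They were 42 for molar pSmad1/5 (56.0%, 44.1 to 67.5%, all genes 48.1%) and 26 for molar Smad4 (34.7%, 24.0 to 46.5%, all genes 36.9%). The ratio to the length-standardised share was 1.52 (1.19 to 1.83) and 1.36 (1.07 to 1.64) for pSmad1/5 in limb and molar. For Smad4 it was 1.10 (0.825 to 1.38) in limb and 1.26 (0.873 to 1.69) in molar, with 1 inside both ranges. With peaks scoring at least 4 the ratios within 10 kb were 1.56, 0.841, 1.79 and 1.44 in list order.

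Within 50 kb the shares were 82.7% for limb pSmad1/5 (62 genes, 72.2 to 90.4%, all genes 67.3%) and 81.3% for limb Smad4 (61 genes, 70.7 to 89.4%, all genes 70.5%). They were 90.7% for molar pSmad1/5 (68 genes, 81.7 to 96.2%, all genes 74.4%) and 78.7% for molar Smad4 (59 genes, 67.7 to 87.3%, all genes 67.3%). All 4 ratios lay above 1 in list order, at 1.33 (1.16 to 1.45), 1.25 (1.09 to 1.37), 1.33 with an upper bound of 1.41 and 1.32 (1.13 to 1.46). With length and CG dinucleotides together they came to 1.05, 0.958, 1.11 and 1.09, and the 10 kb ratios to 1.16, 0.800, 0.984 and 1.08. The shares at 3 distances are drawn in the plot of shares by list.

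**Figure D1:**
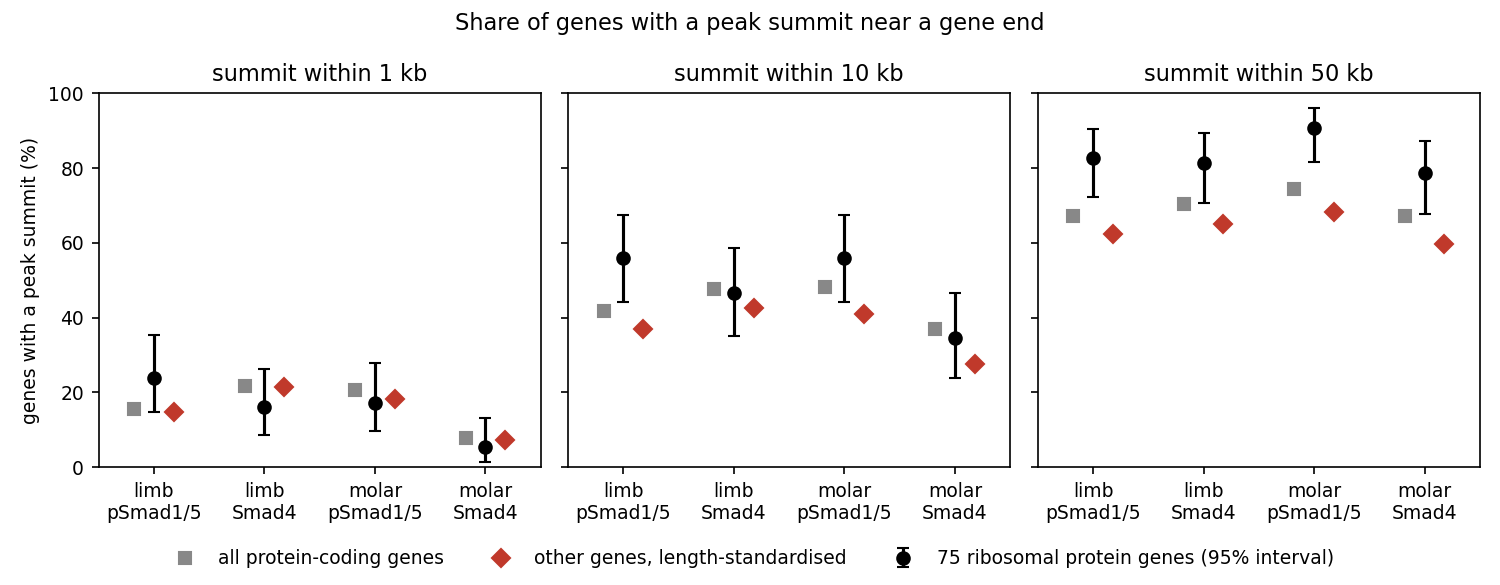
Percent of genes with a peak summit within 1, 10 and 50 kb of either gene end, in 4 lists with 1 library each: black circles, the 75 ribosomal protein genes with exact 95% intervals; grey squares, all protein-coding genes; red diamonds, other genes standardised to the same lengths. Within 1 kb limb pSmad1/5 (24.0%) is the list where the circle lies above both references, and within 50 kb the circles lie above both in all 4 lists.

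The neighbourhoods of these genes were gene-rich. A ribosomal protein gene had a median of 21.0 protein-coding genes within 500 kb (2 to 62), against 15.0 for all genes. Within 50 kb it had a median of 2, 3, 3 and 2 peaks in list order, against 1, 2, 2 and 1 for all genes. When only summits nearer to a ribosomal protein gene than to any other gene were taken, the counts within 50 kb came to 28, 28, 31 and 17. The same count was not made for other genes, so it has no background. Adding gene density to 5 classes of length moved the ratio within 10 kb from 1.93 to 1.99 for limb pSmad1/5 and from 1.72 to 1.74 for molar pSmad1/5.

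Rps15, a small-subunit protein gene recurrently mutated in chronic lymphocytic leukaemia, had the most peaks within 50 kb, 51 over the 4 lists (13, 21, 10 and 7 in list order), and it lies in a dense neighbourhood of 55 genes within 500 kb. Rpl10a followed with 33, of which 15 were limb pSmad1/5, and Rplp0 with 32, of which 11 were molar pSmad1/5. At the other end stood Rps27a, which encodes ubiquitin fused to a small-subunit protein. It was the 1 gene of 75 with no summit within 50 kb in any list (1.33%, against 11.6% of all genes and 17.0% after length standardisation). Its nearest summits were 89410 bp away in limb pSmad1/5, 210824 bp in limb Smad4, 171716 bp in molar pSmad1/5 and 57024 bp in molar Smad4.

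The genes differed widely in how many lists placed a summit near them. No list had a summit within 1 kb of 39 genes (52.0%, against 55.1% of all genes and 58.1% after length standardisation). A single list did at 27 genes (36.0%, against 28.1% and 26.2%), and at least 2 lists did at 9 (12.0%, against 16.8% and 15.7%). These 9 are Rpl13a, Rpl15, Rpl32, Rpl39, Rpl7a, Rps10, Rps15, Rps24 and Rps6, of which Rpl15 and Rps15 were reached in 3 lists and none in all 4. All 4 lists had a summit within 10 kb of 5 genes, among them Rpl10, Rps14 and Rps15 (6.67%, against 10.1% and 6.31%), and within 50 kb of 42 genes (56.0%, against 43.0% and 37.8%). Within 1 kb the class of at least 2 lists lay below both references, and the class of a single list lay above both. No interval was computed for these classes.

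**Figure D2:**
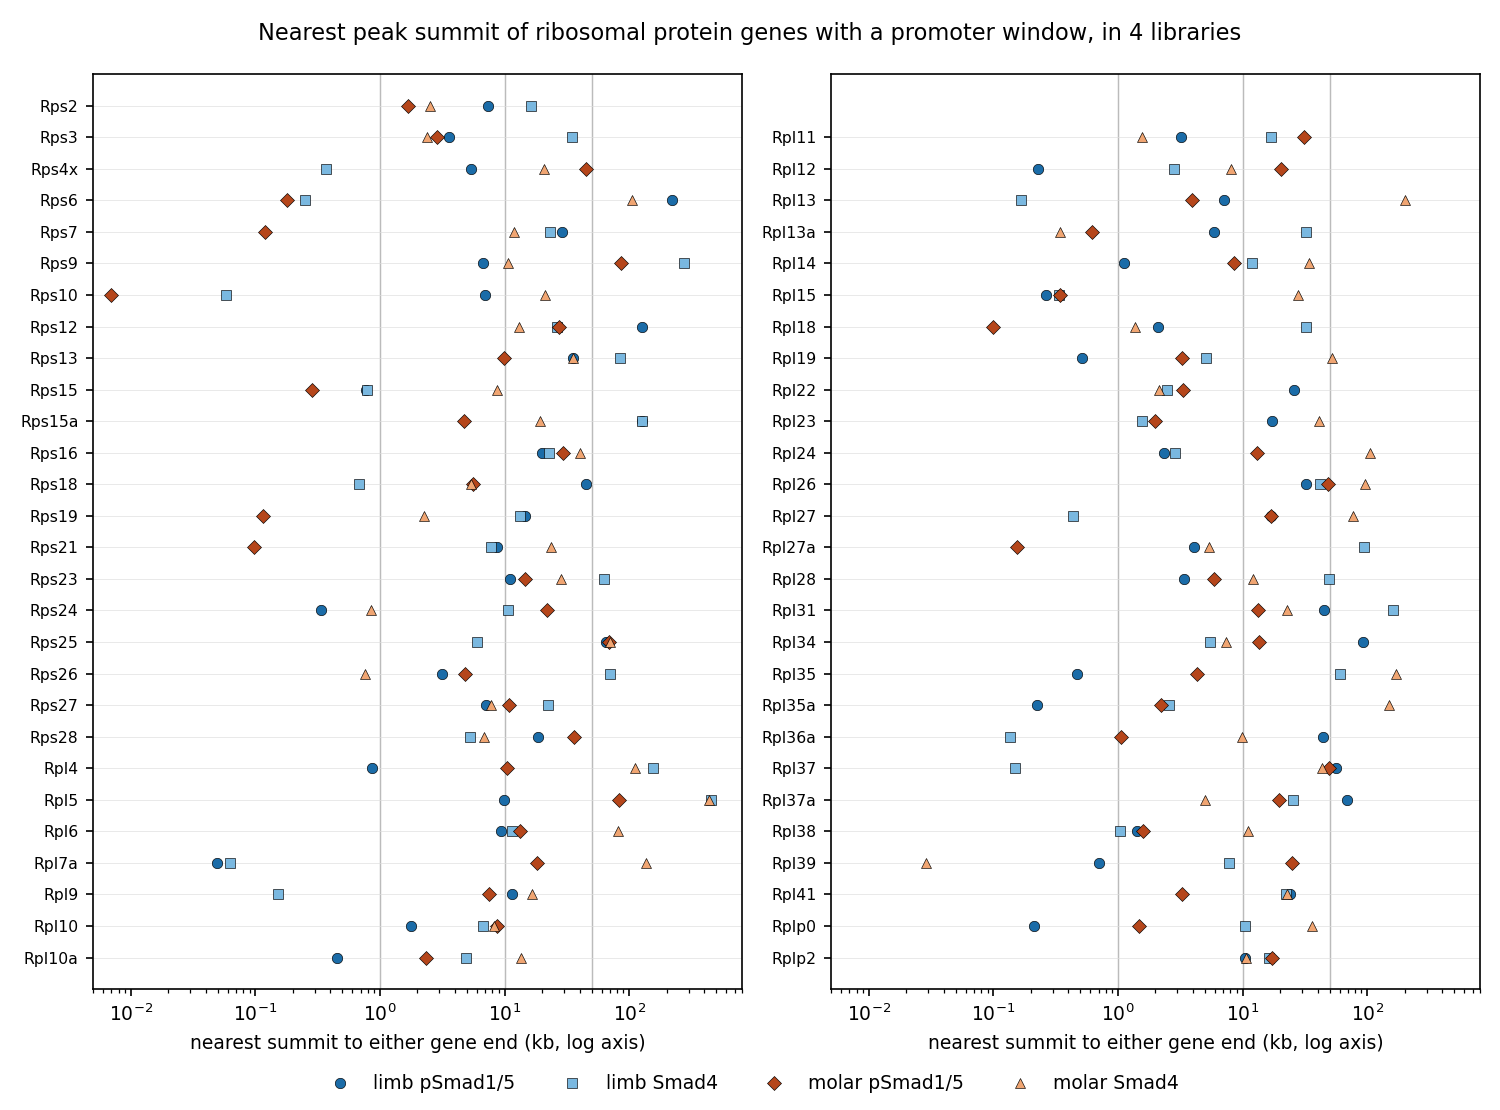
Distance from either gene end to the nearest peak summit for the 55 genes with a promoter window (rows, log axis in kb), with a symbol for each of the 4 lists and vertical lines at 1, 10 and 50 kb. Symbols of 1 row are often far apart, so that a gene with a summit within 1 kb in 1 list mostly lacks one in the others.

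Near summits of 2 lists overlapped at 3 of these 9 genes, Rpl7a, Rps10 and Rpl32. Over all genes, 6.61% had both limb lists within 1 kb and 2.25% an overlap, for molar pSmad1/5 with limb Smad4 7.61% and 1.77%, and for pSmad1/5 in both tissues 5.05% and 0.959%. The ribosomal protein genes had 1 overlap among 3, 4 and 3 genes in these pairs, a count too small to set apart from all genes. Rpl7a was the 1 gene whose limb pSmad1/5 and limb Smad4 peaks overlapped within 1 kb (1.33%, against 2.25%). Its pSmad1/5 summit lay 49 bp before the gene with a score of 5.30 (rank 447 of 23389), and its Smad4 summit 63 bp before it with a score of 4.63 (rank 2895 of 29756). The summits were 14 bp apart and the peaks overlapped by 63 bp, the capitals of the first sequence above. The end of Med22, which encodes a subunit of the Mediator complex, lies 6 and 20 bp from them, so that both sites are nearer to Med22 than to Rpl7a. No molar summit lay within 1 kb of Rpl7a.

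Rps10 was the 1 gene with overlapping molar pSmad1/5 and limb Smad4 peaks (1.33%, against 1.77%). The overlap was 2 bp, with the limb Smad4 summit 58 bp before the start (score 4.65) and the molar pSmad1/5 summit 7 bp after it (score 3.96), 65 bp apart. A second molar pSmad1/5 peak lay 350 bp into the gene, with a score of 3.58. These sites touch rather than coincide, as the 2 prints of Rps10 show, and both lie far from the next gene, Nudt3, at over 11 kb (11850 and 11785 bp).

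Rpl32, a large-subunit protein gene much used as a reference for expression, was the 1 gene listed at overlapping sites for pSmad1/5 in both tissues (1.33%, against 0.959%). In limb it held 2 narrow peaks 163 and 279 bp inside the gene end, with scores of 6.17 (rank 82 of 23389) and 4.97. In molar tooth germ 1 peak of 314 bp, with a score of 4.38 and its summit 119 bp inside, spanned both, with overlaps of 49 and 74 bp. That molar peak was the widest of the peaks within 1 kb of a ribosomal protein gene, where the median width in its list was 67.0 bp. No gene of the 75 had overlapping molar pSmad1/5 and molar Smad4 peaks, where 0.183% of all genes did.

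At Rpl15 and Rps15 the summits of 3 lists lay apart. Rpl15, a large-subunit gene on chromosome 14, had limb pSmad1/5 at 263 bp and limb Smad4 at 334 bp before its start, with scores of 3.92 and 5.28. These summits are 71 bp apart and the peaks do not overlap, and Nkiras1 is the nearer gene to both, at 113 and 184 bp. Its molar pSmad1/5 summit lay 341 bp inside the gene. Rps15 had molar pSmad1/5 at 285 bp and limb Smad4 at 786 bp inside the gene, and limb pSmad1/5 770 bp past its end. The molar peak of Rps15 was 259 bp wide, with a score of 3.04. The summits of Rps15 were 501 to 2168 bp apart. At Rpl15 the limb pSmad1/5 and limb Smad4 sites count as shared when summits at most 100 bp apart are the rule.

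The remaining genes with near summits in 2 lists were of the same kind. Rps6, the substrate of S6 kinase in the small subunit, had limb Smad4 250 bp before its start (score 4.24) and molar pSmad1/5 179 and 295 bp inside (3.02 and 3.16). Rps24, a gene of Diamond-Blackfan anaemia, had limb pSmad1/5 337 bp inside (4.11) and molar Smad4 845 bp past its end (3.02). Rpl13a, whose product also takes part in translational silencing after interferon gamma, had molar pSmad1/5 622 bp before its start (3.49) and molar Smad4 341 bp inside (4.09). On the X chromosome, Rpl39 had limb pSmad1/5 701 bp inside (2.11) and molar Smad4 29 bp inside (2.19). None of these pairs overlapped.

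By subunit, the 2 pSmad1/5 lists showed opposite orders within 1 kb. Limb pSmad1/5 summits lay near 14 of 43 large-subunit genes (32.6%, length-standardised 15.5%) and 3 of 29 small-subunit genes (10.3%, length-standardised 14.2%). Molar pSmad1/5 summits lay near 5 of 43 large-subunit genes (11.6%, 19.2%) and 8 of 29 small-subunit genes (27.6%, 17.2%). Limb Smad4 had near-equal shares, 7 of 43 (16.3%) and 5 of 29 (17.2%), and molar Smad4 had 2 of each. The subunits were not tested against each other, and the counts are small.

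Within 10 kb the subunits differed least in molar pSmad1/5. Limb pSmad1/5 lay near 28 of 43 large-subunit genes (65.1%, length-standardised 38.5%) and 13 of 29 small-subunit genes (44.8%, 35.7%). Molar pSmad1/5 lay near 24 of 43 (55.8%, 42.9%) and 17 of 29 (58.6%, 39.4%). Limb Smad4 lay near 24 of 43 (55.8%, 44.1%) and 11 of 29 (37.9%, 40.9%), and molar Smad4 near 14 of 43 (32.6%, 28.4%) and 12 of 29 (41.4%, 26.8%), so the Smad4 shares were farther apart than within 1 kb.

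Among large-subunit genes, Rpl19 and Rpl32 stood highest by score in the limb pSmad1/5 list. Rpl19 had a peak of score 7.37, rank 23 of 23389, at 518 bp inside the gene. The end of Cacnb1, a calcium channel subunit gene, lay 513 bp from that summit, so the site was about as near to Cacnb1. Score and deposited p-value did not order peaks alike. The p-value from the authors' peak calling was 0.00078 for the Rpl19 peak, under the highest listed of 0.001. It was 0.00031 for the Rpl32 peak of score 6.17, against 9.6e-09 for the Rpl7a peak of score 5.30. Rpl8 had a peak of score 4.46 at 899 bp, and Rpl10a had 2 peaks, at 453 and 818 bp inside (3.30 and 4.39). Rpl12, Rpl23a and Rpl35 had scores of 4.19, 4.10 and 4.07, each within 500 bp of a gene end (228, 203 and 467 bp). Rpl35a (224 bp, 3.15) and Rpl21 (327 bp, 3.05) had lower-scoring peaks, and the Rpl4 summit, 866 bp past its end (3.48), was nearer to Snapc5, at 131 bp.

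The limb Smad4 list reached other large-subunit genes. Rpl9 (153 bp inside, 3.64), Rpl37 (150 bp inside, 3.53), Rpl13 (168 bp inside, 3.35) and Rpl27 (433 bp inside, 3.33) had a limb Smad4 peak and no limb pSmad1/5 peak within 1 kb, as did Rpl36a (136 bp before, 2.35). RPL13 is mutated in a skeletal dysplasia of children. In molar pSmad1/5, Rpl18 (100 bp before the start, 4.08) and Rpl27a (156 bp inside, 3.43) were reached besides Rpl32, Rpl13a and Rpl15. No large-subunit gene had near summits in both molar lists except Rpl13a.

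Among small-subunit genes, limb pSmad1/5 summits lay within 1 kb of Rps24 and Rps15, as given above. Limb Smad4 reached Rps18 (681 bp past its end, 4.69, with B3galt4 nearer at 171 bp) and the X-linked Rps4x (367 bp inside, 2.31) besides Rps6, Rps10 and Rps15. Molar pSmad1/5 reached Rps14, the gene whose loss underlies the anaemia of 5q- syndrome (159 bp inside, 4.84, the highest score of the list near these genes), and Rps21 (97 bp inside, 3.75). It also reached Rps19 (115 bp inside, 3.09), the gene most often mutated in Diamond-Blackfan anaemia, and Rps7 (120 bp inside, 3.03). Molar Smad4 reached Rps26 (763 bp inside, 3.13) and Rps24.

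The stalk genes stood apart from one another. Rplp0 had limb pSmad1/5 212 bp before its start (score 3.09, rank 19322 of 23389), and its nearest summits in the other lists were at 10498 bp (limb Smad4), 1465 bp (molar pSmad1/5) and 36036 bp (molar Smad4). Rplp1 had none within 10 kb: 31780, 54477, 56302 and 24269 bp in list order. Rplp2 had its nearest at 10526, 16164, 17258 and 10642 bp. Of the 3, then, only Rplp0, with limb pSmad1/5 at 212 bp, had a summit within 1 kb in any list.

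Genes known from mouse mutants or human disease were counted as a set of 16, of which 15 follow the naming rule and Rpsa does not. Summits within 1 kb lay at 3 of 16 in limb pSmad1/5 (18.8%, length-standardised 16.2%), 1 in limb Smad4 (6.25%, 23.2%), 4 in molar pSmad1/5 (length-standardised 19.6%) and 2 in molar Smad4 (12.5%, 7.72%). Within 10 kb the counts in list order were 10, 6, 10 and 5 (62.5%, 37.5%, 62.5% and 31.2%, against length-standardised 41.0%, 46.5%, 44.9% and 30.4%). Rpl38, whose loss causes the tail-short mouse with vertebral patterning defects and lower translation of Hox mRNAs, had summits just outside 1 kb in 3 lists, at 1414 bp (limb pSmad1/5), 1039 bp (limb Smad4) and 1592 bp (molar pSmad1/5), and at 11062 bp in molar Smad4. No other gene of the 75 had 3 lists between 1 and 2 kb and none closer.

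The other mutant genes spread over the whole range. Rpl24, mutated in the belly spot and tail mouse, had its nearest summits at 2325, 2849, 13114 and 104589 bp in list order. Rps20, a gene of dark-skin mice, had them at 143922, 53089, 11777 and 122976 bp. Rpl5 and Rpl11, whose products bind Mdm2 with the 5S RNA, had theirs at 9807, 450656, 82830 and 438105 bp and at 3213, 16816, 31038 and 1552 bp. Rpl10, X-linked and mutated in neurodevelopmental disorders, had a summit within 10 kb in each list (1775, 6707, 8681 and 8194 bp). Rps20 and Rpl5 each had 1 peak in all within 50 kb, and Rpl10 had 23.

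The limit of 1 kb cut close in a few cases. Just inside it lay Rpl8 (899 bp) and Rpl4 (866 bp) in limb pSmad1/5, Rps15 (786 bp) in limb Smad4 and Rps24 (845 bp) in molar Smad4. Just outside lay Rpl14 (1110 bp) in limb pSmad1/5, Rpl38 (1039 bp) and Rpl7 (1083 bp) in limb Smad4, Rpl36a (1053 bp) in molar pSmad1/5 and Rpl18 (1370 bp) in molar Smad4.

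The 51 peaks within 1 kb lay mostly at the start of the gene. Strand is known for the genes of 41 of them, of which 37 were nearer the start and 4 nearer the end. Of the 37, 27 lay downstream of the start and 10 upstream. By list, 8 of 11, 6 of 11, 10 of 12 and 3 of 3 start peaks lay downstream. Among all genes, 66.9%, 68.5%, 68.9% and 55.5% of start summits did so in list order. The counts are small and were not tested against these shares. Over all genes the share nearer the start was 76.5% in limb pSmad1/5, 78.3% in limb Smad4, 82.6% in molar pSmad1/5 and 57.2% in molar Smad4. For the ribosomal protein genes it was 11 of 13, 11 of 12, 12 of 12 and 3 of 4 peaks. In limb Smad4, 5 of the 11 start peaks lay upstream, and in molar pSmad1/5 2 of 12. Another gene end lay within 1 kb of 12 of the 51 summits and was the nearer one for 7.

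**Figure D3:**
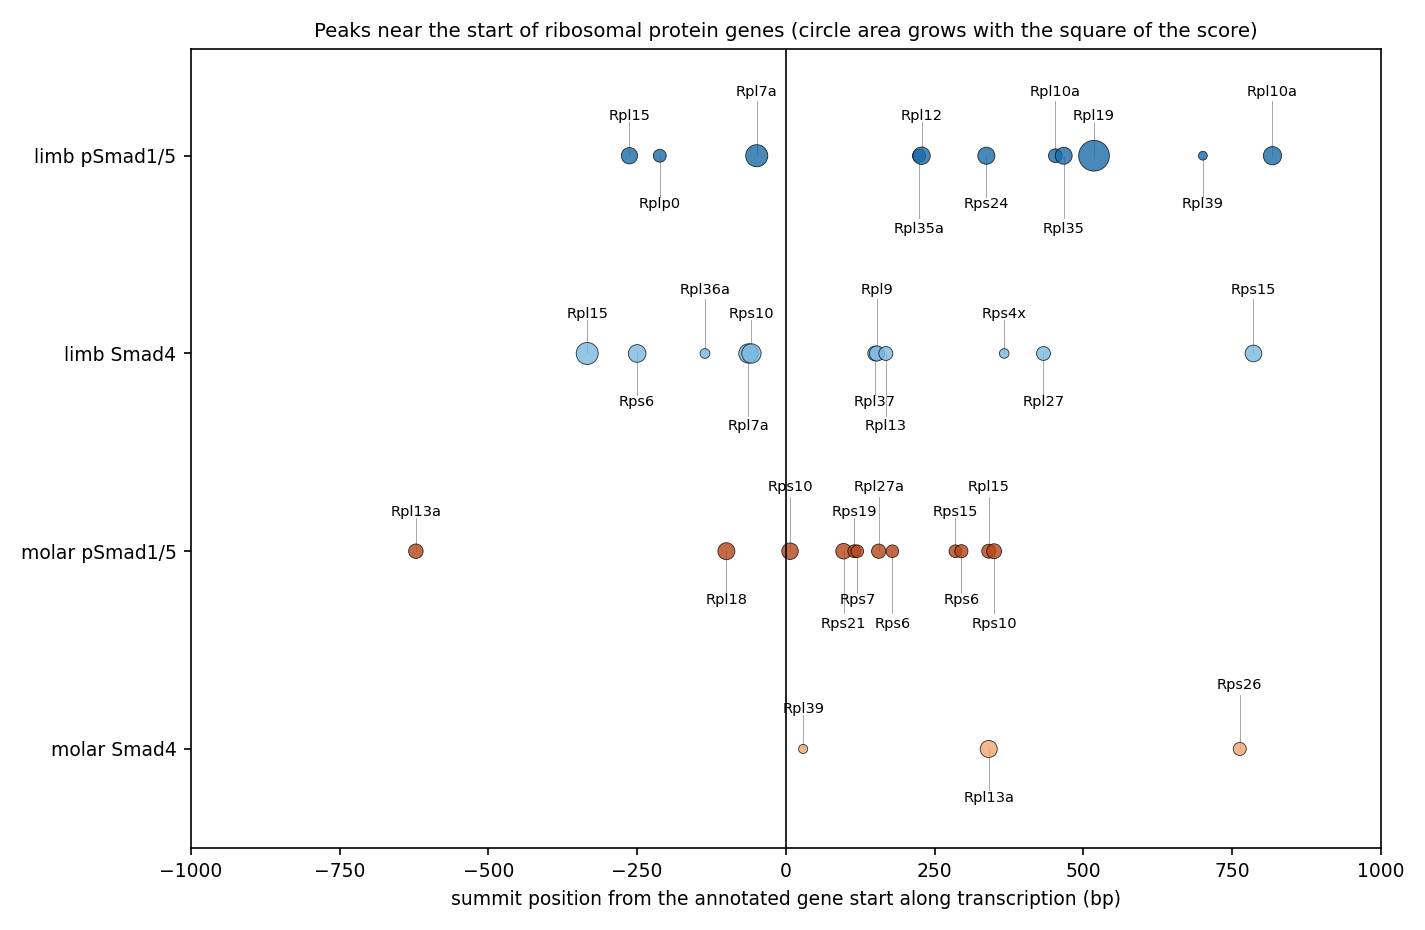
Summit positions within 1 kb of the start of ribosomal protein genes of known strand and nearest to the start, in bp along transcription (0 is the annotated start, negative is upstream), with 1 row for each list; circle area grows with the square of the authors' score. Of the 37 circles, 27 lie downstream, where 55.5 to 68.9% of start summits did so over all genes, depending on the list. The molar pSmad1/5 circles gather at 7 to 350 bp, except Rpl18 and Rpl13a upstream.

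Scores near ribosomal protein genes were set beside those near any gene in the same list. In limb pSmad1/5 the 20 peaks within 1 kb had a median score of 4.09 (2.11 to 7.37), against 3.64 for peaks within 1 kb of any gene, and 55.0% reached 4 against 32.5%. In limb Smad4 the 12 peaks had a median of 3.82 (2.31 to 5.28) against 3.76. In molar pSmad1/5 the 15 peaks had a median of 3.49 (3.02 to 4.84) against 3.25, and in molar Smad4 the 4 peaks 3.07 (2.19 to 4.09) against 3.48. Peaks scoring 4 or more lay within 1 kb of 10, 6, 3 and 1 genes in list order (13.3%, 8.0%, 4.0% and 1.33%, against length-standardised 5.81%, 9.63%, 3.98% and 2.03%), above the other genes in limb pSmad1/5 and near or below them in the other lists.

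The unevenness of the lists between chromosomes goes with uneven counts. On X, where limb scores reach lower than on autosomes, limb Smad4 had a summit within 1 kb of 2 of 4 genes (11.8% of all genes there) and within 10 kb of 4 (35.2%). In molar Smad4, 23 of the genes lie on the 6 chromosomes where no peak scores under 4 (2, 5, 8, 9, 11 and 19). None of the 23 had a summit within 1 kb, where 2.72% of all genes there did, and 2 had one within 10 kb (8.70% against 15.9%). On the 13 autosomes with listed scores down to 3 (48 genes), 3 had one within 1 kb (6.25% against 10.3%) and 21 within 10 kb (43.8% against 48.5%). In molar pSmad1/5, 17 genes lie on the chromosomes with listed scores down to 2, and 6 of them had a summit within 10 kb (35.3% against 60.8%). On the chromosomes with scores down to 3 it was 36 of 58 (62.1% against 42.5%).

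Chromosome 7 holds 14 of the 75 genes. Molar pSmad1/5 had a summit within 1 kb of 5 of them, among them Rps19, Rpl13a, Rpl18 and Rpl27a, where 274 of all 2030 genes of that chromosome had one, and within 10 kb of 11 (35.1% of all genes there). Limb Smad4 had 0 within 1 kb (7.14%) and 2 within 10 kb (27.9%). Molar Smad4 had 1 within 1 kb, Rpl13a (11.6%), and 7 within 10 kb (47.7%). Limb pSmad1/5 had 1 within 1 kb (9.90%) and 7 within 10 kb (36.8%). Chromosome 7 was singled out after its values were seen.

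Other genes of protein synthesis were counted in the same way. The 78 mitochondrial ribosomal protein genes had a summit within 1 kb at 13 genes in limb pSmad1/5, 16 in limb Smad4, 13 in molar pSmad1/5 and 4 in molar Smad4 (16.7%, 20.5%, 16.7% and 5.13%), against length-standardised shares of 16.1%, 22.4%, 20% and 7.76%. The 54 genes of ribosome assembly, such as Npm1, Ncl and Nop2, had 7, 13, 9 and 6 (13.0%, 24.1%, 16.7% and 11.1%, against 16.4%, 23.1%, 21.1% and 7.87%). The 70 genes named Eif or Eef, mostly initiation and elongation factors but also methyltransferases such as Eef2kmt, had 14, 16, 25 and 5. Their limb pSmad1/5 share was 20% against a length-standardised 16.5%, and limb Smad4 had 22.9% against 23.5% and molar Smad4 7.14% against 8.19%, each near its background. Their molar pSmad1/5 share was 35.7% against 21.4%, where the cytoplasmic ribosomal protein genes had 17.3% against 18.2%. The lists were not tested against each other.

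Paralogs outside the naming rule had 11 of 14 listed symbols in the annotation. Within 1 kb, Fau, which encodes a small-subunit protein fused to a ubiquitin-like domain, had both limb pSmad1/5 and limb Smad4 summits, and Rpl36al had limb Smad4. Rpl3l, the muscle form of Rpl3, had summits in both molar lists, and Rpl39l and Rpl7l1 in molar Smad4.

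**Figure D4:**
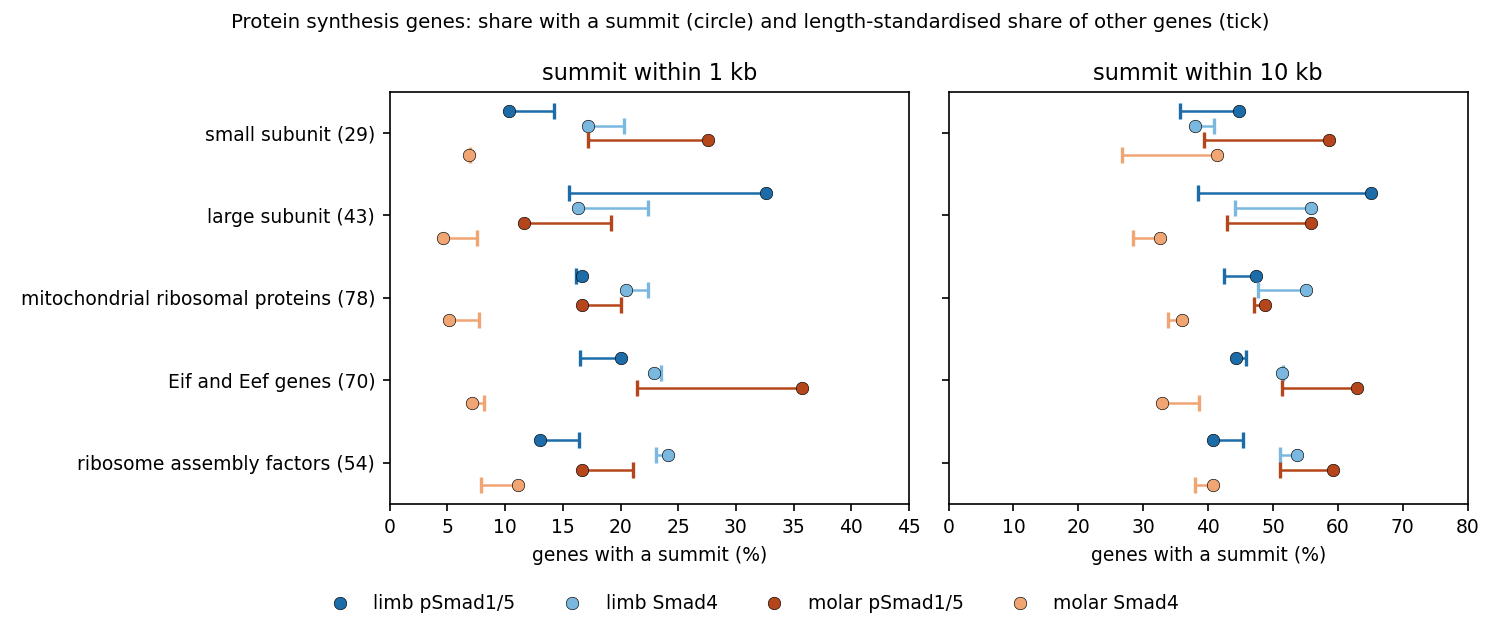
Percent of genes with a summit within 1 kb (left) and 10 kb (right) for 5 sets of protein synthesis genes, with 4 lists each (colours); circles are the set, ticks the length-standardised share of other genes, and the line joins them. Within 1 kb the widest gaps above the tick are large-subunit genes in limb pSmad1/5 (32.6% against 15.5%) and Eif and Eef genes in molar pSmad1/5 (35.7% against 21.4%).

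The promoter windows of 55 genes, 65 windows in all, were searched on both strands for short motifs beside all 21263 windows of 17492 genes. AGAC, the core Smad letters, stood in 86.2% of the ribosomal protein windows and 86.8% of all. GGCGCC stood in 21.5% against 15.3%, and GGAGCC in 32.3% against 34.9%. Matches to GC-rich letters are partly set by base composition, which was a median of 58.0% G and C against 56.3%. For CG dinucleotides the median was 21.0 against 13.0. The Smad palindrome stood in none of the 65 and in 0.226% of all. Of the 3 short Smad motifs, GGCGCC, the one that holds a CG, was the one with a larger share in these windows than in all windows.

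Letters of other factors were more frequent in ribosomal protein promoters. CCGGAAG, the ETS core, stood in 35.4% of windows against 11.6%, the E-box CACGTG in 12.3% against 7.84%, and the YY1 motif in 6.15% against 1.21%. These are 23, 8 and 4 of the 65 windows. Each of these motifs holds a CG, and the higher number of CG dinucleotides (median 21.0 against 13.0) was not taken into account. A pyrimidine tract, CTTTC or CTTCC on the gene strand beginning within 10 bases of the start, stood in 33.8% against 8.51%. Of the promoters printed above, those of Rps10 and Rpl36a have such a tract and that of Rplp0 does not. A match says that the letters are present and no match that they are absent from the window, and neither shows binding of a factor.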

How the data were processed

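ChIP-seq peak lists of pSmad1/5 and Smad4 in E13.5 limb and molar tooth germ were used, 1 library each. The authors called peaks with BCP (transcription factor mode, per the labels) on mm10, per the submitters' processing notes. Those notes name bcl2fastq, Bowtie2, SAMtools, bedtools and deepTools without versions or roles. Use of the inputs, and the handling of duplicates, problem regions and reads that map to several places (ribosomal protein genes have many processed pseudogenes), are not given in the sources used here. The deposited enrichment score served to rank peaks or to set a minimum. Every deposited p-value was under 0.001, and none entered a test.

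Genes came from RefSeq on GRCm38.p6, whose chromosomes have the coordinates of mm10. A gene counted when a summit lay within 1, 10 or 50 kb of either annotated end. Strand and promoter letters came from RefSeq's promoter windows, which cover 55 of 75 genes. Shares were standardised in 10 classes of gene length. Overlap means at least 1 bp. Counting was tested on simulated data. The genes and lists were chosen with earlier results of these data known.

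Named are genes with a summit within 1 kb in at least 2 lists, per list the 5 nearest and the 5 highest-scoring, stalk genes, disease or mutant genes and genes without a summit within 50 kb. Other names were chosen after their values were seen. Some genes within this rule are not reported here. Alternatives were other length classes, gene density, promoter letters, chromosomes, a minimum score of 4, equal peak numbers per chromosome, starts only, any base of a peak, summits nearest to the gene, and stricter overlaps. Scripts ran in Python 3.11.15 with matplotlib 3.10.9, scipy 1.17.1, pandas 2.3.3 and numpy 2.4.6.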

Additional observations from a re-analysis of the deposited data

Results flagged for a closer look

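The limb pSmad1/5 list and the limb Smad4 list gave ratios to other genes of the same length, within 1 kb, that lay on opposite sides of 1 with 10 classes of length. The ratio was 1.62 for pSmad1/5 and 0.747 for Smad4. Likewise the ratio was 1.62 for pSmad1/5 in limb and 0.951 in molar tooth germ. Each list is 1 library, so neither difference was tested. The ranges of the limb Smad4 ratio (0.399 to 1.23) and the molar pSmad1/5 ratio (0.525 to 1.53) take in 1, and their side of 1 changed with the setting. With 5 classes of length the ratios were 2.12, 0.996 and 1.25 for limb pSmad1/5, limb Smad4 and molar pSmad1/5, with gene density added 2.18, 1.01 and 1.24, and with 5 classes among genes with a promoter window 1.95, 1.39 and 1.31. With length and promoter GC they were 1.25, 0.867 and 0.847. With length and promoter CG dinucleotides combined, for the 55 genes with a promoter window, the 3 ratios were 0.971 (limb pSmad1/5), 0.666 (limb Smad4) and 0.606 (molar pSmad1/5), all below 1.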

How the results depend on the processing

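Of 60 recomputed counts 37 stayed within 1.5 times the reported count, as did 8 of 12 counts of shared sites, and 62 of 96 ratios stayed within the range of the reported ratio. Values that moved more follow, limb before molar and pSmad1/5 before Smad4 unless named. With a score of at least 4, 10, 6, 3 and 1 genes had a summit within 1 kb, 18, 13, 13 and 10 within 10 kb, and 37 (limb pSmad1/5), 31 (molar pSmad1/5) and 37 (molar Smad4) within 50 kb. The molar pSmad1/5 ratios then were 1.79 (10 kb) and 1.58 (50 kb), the molar Smad4 ratio 1.58 (50 kb), and Rps10 had no shared site (0). With equal numbers of top-scoring peaks per chromosome, molar Smad4 kept 1 gene within 1 kb and 14 within 10 kb. With starts only, 10 genes remained within 1 kb in limb pSmad1/5, and 27 (molar pSmad1/5) and 17 (molar Smad4) within 10 kb, over the 55 genes of known strand. With summits nearer to the gene than to another gene, 28, 28, 31 and 17 remained within 50 kb, and 22 (limb Smad4), 23 (molar pSmad1/5) and 13 (molar Smad4) within 10 kb.

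With 5 classes of length, the ratios within 10 kb were 1.93, 1.39 and 1.72 in the first 3 lists, and within 50 kb 1.61, 1.5, 1.56 and 1.5. Adding gene density gave 1.99, 1.42 and 1.74, and 1.63, 1.52, 1.57 and 1.51. With 5 classes among genes with a promoter window the ratios were 2.01, 1.41 and 1.71 within 10 kb, 1.69, 1.5 and 1.61 within 50 kb, and 1.39 for limb Smad4 within 1 kb. With length and promoter CG dinucleotides they were 0.971 for limb pSmad1/5 within 1 kb, 1.16, 0.800 and 0.984 within 10 kb, and 1.05, 0.958, 1.11 and 1.09 within 50 kb. With length and promoter GC the limb Smad4 ratio within 50 kb was 1.04, and with length within chromosomes the molar pSmad1/5 ratio within 50 kb was 1.46. Where both peaks had to be covered by at least 50%, the shared sites of Rps10 and Rpl32 were lost (0 and 0). With summits at most 100 bp apart limb pSmad1/5 and limb Smad4 shared 2 genes, Rpl7a and Rpl15. The causes of these changes were not tested, beyond fewer peaks or genes where a setting removes them. No paired analysis was possible because each group has 1 library. The added settings by promoter letters, by chromosome and by nearest gene were chosen after seeing the data. Read depth is unknown, so a gene without a summit may have a site too weak to be listed.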
